A study of Mus musculus with 24 samples.

Results

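The miRNA that circulate in the plasma of unexposed mice were described from the 8 filtered air mice among the 24 mice of an inhalation study. The members are all 566 mouse miRNA probes of the panel in these 8 mice, out of 626 probes in all, set against the 8 negative control probes read in the same tubes. No exposed mouse enters any value here. The study compared filtered air with inhaled particles that carry environmentally persistent free radicals (EPFR) at a high or a low radical content, and these mice were its unexposed controls. They were male mice of the inbred strain C57BL/6J, labelled as 20 weeks old. Each breathed filtered air in the exposure chamber for 4 hours a day on 5 days, and blood was drawn into EDTA tubes after the last session. RNA came from 200 µL of plasma of each mouse without pooling, so each library is a separate animal. Hemolyzed plasma was left out by the study. The mice therefore describe handled, chamber-exposed males of 1 strain at 1 time point.

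miRNA are short non-coding RNA that guide Argonaute proteins to messenger RNA, mostly through the seed, a stretch near their 5′ end. They leave cells in vesicles, on proteins and lipoproteins, and when cells break. Plasma miRNA are therefore a mixture from blood cells, vessel wall and organs, and some miRNA are so restricted to a cell type that they are read as a sign of their source. Red blood cells are the classic source of miR-451 and miR-16, while miR-122 marks liver and miR-1 marks heart and skeletal muscle. The labels call the RNA exosomal and the methods call it circulating and exosomal, and vesicle-borne and free miRNA cannot be told apart in these counts.

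Of the 566 miRNA, 18 were above background (3.18%). A miRNA was called above background where edgeR's quasi-likelihood F test put its mean count over the background limit of the mice at an adjusted p under 0.05. The limit of a mouse is the mean plus 2 SD of its negative controls, and it lay between 32.1 and 41.1 counts. In falling order of mean count the 18 were miR-451, miR-16, miR-22, miR-25, miR-486, miR-142-5p, miR-144, let-7f, miR-223, miR-135a, the joint probe for miR-20a and miR-20b, miR-15a, miR-323-3p, miR-15b, miR-150, let-7g, miR-27a and miR-126-3p. Of these, 9 are in the lists of red blood cell or leukocyte miRNA used here. They were 6 of the 10 red blood cell and 3 of the 8 leukocyte members, against 3.18% of all miRNA. Of the 9, miR-144, miR-15a and miR-150 passed only with mouse 6 (edgeR adjusted p = 0.235, 0.471 and 0.138 without it). The lists were chosen with earlier results of these data known. Another 518 miRNA lay below the limit by the same test and 30 could not be placed on either side. In this panel the order is one of counts and not of molecules, since probes can differ in how well they ligate and hybridize.

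The mature sequences below show the red blood cell miRNA that lead the profile and the close relatives that a probe has to tell apart. They are RefSeq sequences of build GRCm38.p6, 5′ to 3′, with the seed (bases 2 to 8) in capitals.
miR-451: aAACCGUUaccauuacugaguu
miR-144: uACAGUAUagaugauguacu
miR-16: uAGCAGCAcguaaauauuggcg
miR-15a: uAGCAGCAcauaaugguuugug
miR-15b: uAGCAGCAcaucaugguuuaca
miR-25: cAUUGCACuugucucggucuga
miR-92a: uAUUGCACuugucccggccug
let-7f: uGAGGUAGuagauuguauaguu
let-7g: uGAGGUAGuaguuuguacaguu
let-7a: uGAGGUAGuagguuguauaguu
The table held a sequence for 16 of the 18 probes, all but miR-486 and miR-150, which are only named. With both miRNA of the joint probe these are 17 sequences and 13 seeds.

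miR-16, miR-15a and miR-15b share the seed AGCAGCA, and let-7f and let-7g share GAGGUAG. miR-20a and miR-20b share AAAGUGC. let-7f and let-7a differ at 1 base, A12G (let-7f first, counted from the 5′ end). let-7f and let-7g differ at 2 bases. let-7a was listed at exactly 1 count in all 8 mice, as were miR-155, miR-34c and miR-543. A value that does not vary at all is not a reading of the plasma, and the level of these 4 miRNA is not described. How far the let-7 probes cross-hybridize was not tested, so the counts of let-7f and let-7g are uncertain as to which member they measure.

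Several members lie close together in the genome (GRCm38.p6). miR-451 (chr11:78073186-78073207, plus strand) lies 119 bases from miR-144 (chr11:78073047-78073066, plus strand), outside any annotated host gene. miR-15a lies 117 bases from a copy of miR-16 on chromosome 14 within Dleu2, and miR-15b lies 121 bases from the other copy on chromosome 3 within Smc4, a condensin gene. miR-25 (chr5:138165332-138165353, minus strand) lies within Mcm7, a replication helicase gene, 433 bases from miR-106b. miR-126-3p (chr2:26591402-26591423, plus strand) lies within Egfl7, an endothelial gene. miR-22 (chr11:75463772-75463793, plus strand) lies within its own host transcript, Mir22hg.

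Summed over the mouse miRNA, the counts ran from 8665 to 18568 per mouse with a median of 10915. The negative controls averaged 14.0 to 20.9 counts per mouse. Replicates 1 to 4 and 5 to 8 stood apart: totals were 8665 to 9877 in the former and 11953 to 18568 in the latter, and 14 to 20 against 32 to 52 miRNA lay over a mouse's own limit. Positive control counts, which measure hybridization and scanning, were 1204 to 1466 in replicates 1 to 4 and 1535 to 1779 in replicates 5 to 8 (geometric means). The sources used here state that samples were run in several batches and do not give the batch of each mouse. Ligation control counts, which measure the tagging step, spanned 353 to 3988, an 11.3-fold range, with mouse 4 lowest and mouse 8 highest. The plot of totals and controls gives these values by mouse. Whether the difference between the sets of 4 mice comes from plasma or from the runs was not tested.

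**Figure D1:**
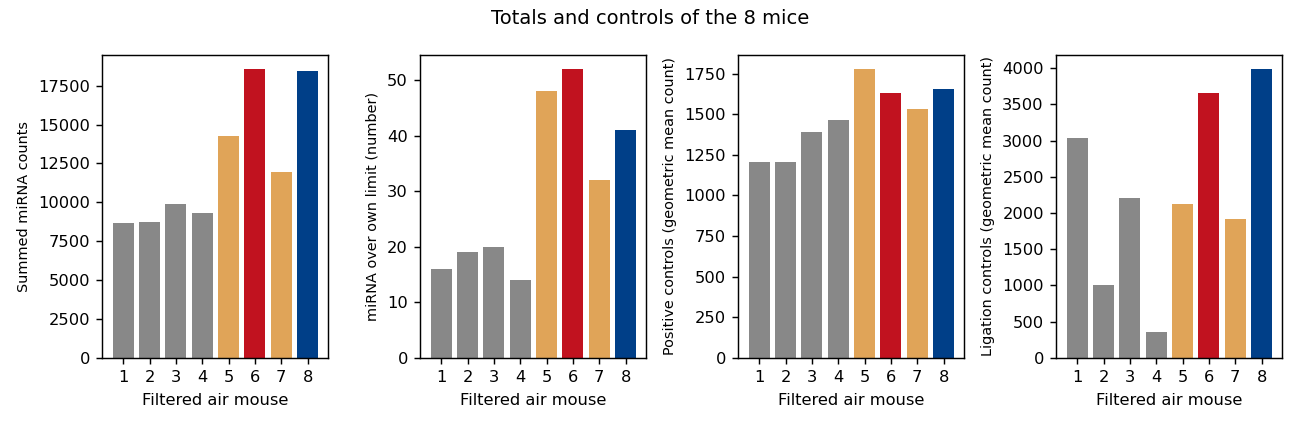
Summed mouse miRNA counts, number of miRNA over the mouse's own background limit, and geometric mean counts of the positive and ligation controls, 1 bar for each filtered air mouse. Grey bars are mice 1 to 4, orange bars mice 5 and 7, red mouse 6 and blue mouse 8. Totals of 18568 and 18473 in mice 6 and 8 stand over the 8665 to 14279 of the other mice, and ligation controls span 353 to 3988.

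Across the 8 mice the total followed the positive controls (Pearson r = 0.83, exact permutation p = 0.0126, adjusted p = 0.0217 over 3 relations; Spearman rho = 0.88, exact permutation p = 0.00724, adjusted p = 0.0109). It also followed the negative controls (r = 0.77, exact permutation p = 0.0145, adjusted p = 0.0217; rho = 0.90, exact permutation p = 0.00456, adjusted p = 0.0109). This relation is partly built in, since the total sums all mouse miRNA probes and 518 of them lay below the limit. With the negative control mean subtracted from each miRNA and negative results set to 0, the counts summed to only 2396 to 10105 per mouse. With the ligation controls r was 0.60 (exact permutation p = 0.103, adjusted p = 0.103) and rho 0.52 (exact permutation p = 0.197, adjusted p = 0.197). Without the 2 mice farthest from the median of each control the 3 values of r were 0.76 (exact permutation p = 0.0903), 0.82 (p = 0.0472) and 0.53 (p = 0.272). Within replicates 1 to 4 they were 0.81, 0.64 and -0.10, and within replicates 5 to 8 they were 0.28, 0.95 and 0.97, on 4 mice each and with no test.

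miR-451 was the most counted miRNA in every one of the 8 mice. This miRNA is cut by Argonaute 2 instead of Dicer and is needed for normal red blood cell maturation. Its counts ran from 1194 in mouse 3 through a median of 1576 to 6445 in mouse 8, with 5822 in mouse 6 and no other mouse over 2518. The mean was 75.3-fold over the background limit (log2 6.23, SE 0.58, edgeR adjusted p = 1.55e-15). It held 12.1% to 34.9% of a mouse's miRNA counts (median 15.4%). After subtraction of the negative control mean from every miRNA, with negative results set to 0, this share was 39.6% to 64.9% (median 50.9%). In bulk plasma, a larger number of cells that released RNA and more RNA released per cell cannot be told apart.

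miR-144, which is transcribed together with miR-451 under erythroid control, was far less counted. Its counts ran from 14 in mouse 4 through a median of 51.5 to 280 in mouse 6. It was over the limit in 5 of 8 mice, so no ratio to miR-451 is given. Mouse 6 stood alone for miR-144, as mouse 8 had only 69 counts, whereas both mice were high for miR-451. The mean was over the limit (log2 1.01, SE 0.32, edgeR adjusted p = 0.00293), but the call rests on mouse 6 and was not made by limma or DESeq2. Without mouse 6 the edgeR value was log2 0.24 (adjusted p = 0.235), and over the 8 mice limma gave log2 0.43 (adjusted p = 0.180) and DESeq2 log2 0.27 (adjusted p = 0.230). Whether the lower values of limma and DESeq2 are separate from the weight of mouse 6 was not tested.

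Of the 10 miRNA listed as red blood cell markers, 6 were above background against 3.18% of all miRNA. They were miR-451, miR-16, miR-25, miR-486, miR-144 and miR-15a. The list held 47.6% to 79.3% of the background-subtracted counts of a mouse (median 57.4%), of which miR-451 was the largest part. The other 4 members, miR-106b, miR-185, miR-363 and miR-92a, averaged 21.5, 14.4, 12.0 and 9.63 counts, within the range of the negative control probes (10.6 to 31.2) or under it. miR-92a is usually reported among the abundant red blood cell miRNA, and it reached 16 counts at most.

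miR-16, which restrains the cell cycle and Bcl2, followed miR-451, with counts from 79 in mouse 4 through a median of 186.5 to 900 in mouse 8. It ranked between 2 and 4 in every mouse (log2 3.20 over the limit, SE 0.36, edgeR adjusted p = 6.44e-10). miR-25 ran from 67 through 93 to 320 (log2 1.96, SE 0.26, edgeR adjusted p = 4.81e-08). miR-486, an erythroid and muscle miRNA encoded in the ankyrin gene Ank1, ran from 28 through 61 to 221 and was over the limit in 6 of 8 mice (log2 1.37, SE 0.28, edgeR adjusted p = 2.39e-05). The miR-486 call was lost in replicates 1 to 4 (log2 0.19, edgeR adjusted p = 0.367). For miR-16, miR-25 and miR-486 the highest counts were those of mice 6 and 8, and the other 6 mice did not reach them. miR-106b and miR-93, which share the primary transcript of miR-25, averaged 21.5 and 21.2 counts and were over the limit in 1 mouse each.

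miR-15a and miR-15b showed another pattern. miR-15a had a median of 40.5 counts and reached 180 in mouse 6, and miR-15b had a median of 51 and reached 162 in mouse 6. The next highest counts were 62 and 56. Mouse 8, high for miR-16, had 45 and 51 counts of them. Both passed the test over 8 mice (edgeR adjusted p = 0.0154 and 0.0203) and neither passed it without mouse 6 (edgeR adjusted p = 0.471 and 0.397) or in limma (adjusted p = 0.196 and 0.256).

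**Figure D2:**
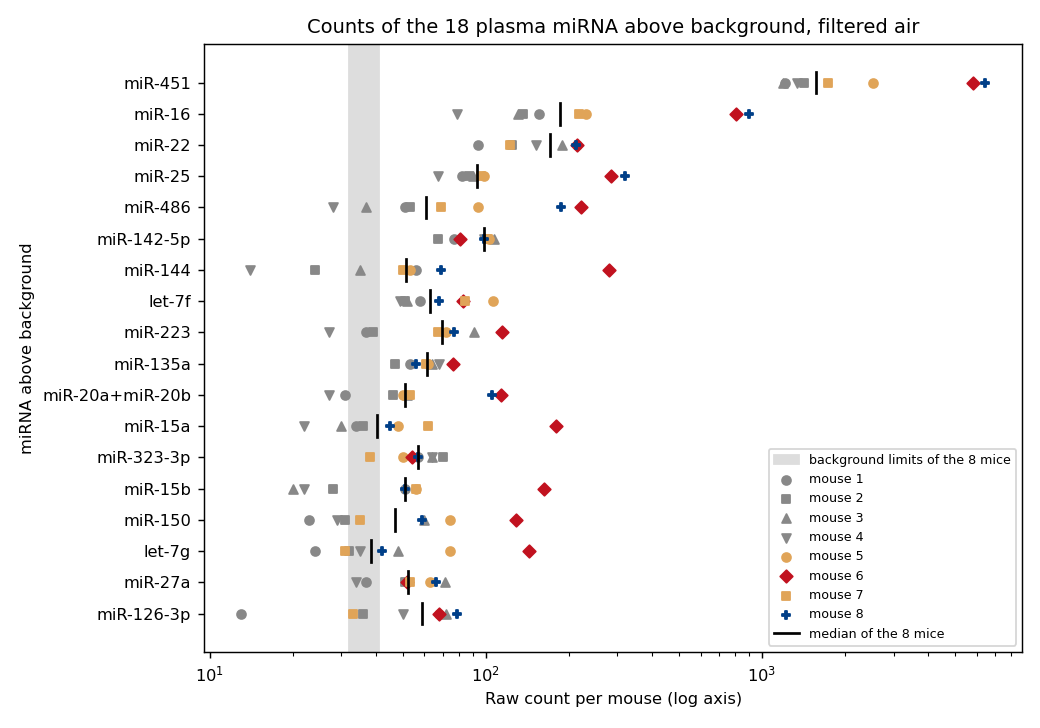
Raw counts (log axis) of the 18 miRNA above background, 1 point for each filtered air mouse, with black bars at the median of the 8 mice and a grey band from 32.1 to 41.1 counts for the background limits. Grey symbols are mice 1 to 4, orange mice 5 and 7, red mouse 6 and blue mouse 8. Mice 6 and 8 stand apart for miR-451, miR-16, miR-25 and miR-486, and mouse 6 alone for miR-144, miR-15a and miR-15b.

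Among the listed white blood cell miRNA, miR-142-5p had the highest mean count. miR-142-5p, from a locus active across blood cell lineages, ran from 67 through 99 to 107 and was over the limit in all 8 mice (log2 1.33, SE 0.16, edgeR adjusted p = 5.33e-08). Unlike miR-451, miR-16, miR-25 and miR-486, it was no higher in mice 6 and 8, at 81 and 99 counts. Its partner strand miR-142-3p ran from 19 through 23.5 to 76 and was over the limit only in mouse 6.

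miR-223, an abundant miRNA of neutrophils and platelets, ran from 27 through 69.5 to 115 (log2 0.85, SE 0.21, edgeR adjusted p = 0.000309). The miR-223 call was lost in replicates 1 to 4 (log2 0.36, edgeR adjusted p = 0.137). miR-150, a miRNA of mature lymphocytes that represses Myb, ran from 23 through 47 to 129 and was over the limit in 4 of 8 mice (log2 0.60, SE 0.23, edgeR adjusted p = 0.0134). The miR-150 call was lost in limma (adjusted p = 0.116) and in edgeR without mouse 5 (adjusted p = 0.0519) or mouse 6 (adjusted p = 0.138), and its value turned to log2 -0.081 in replicates 1 to 4. Both miRNA were highest in mouse 6. Of the 8 listed leukocyte miRNA, 3 were above background (37.5%, against 3.18% of all miRNA). miR-146a, a brake on inflammatory signalling, averaged 33.1 counts, and miR-342-3p and miR-181a averaged 17.5 and 16.4. Of the 5 listed platelet miRNA, 2 were above background (40.0%, against 3.18%), miR-223 and miR-126-3p, while miR-191, miR-26a and miR-24 averaged 19.5, 16.8 and 8.00. miR-223 stands in both lists, so it names no single source.

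miR-126-3p, the miRNA of endothelial cells encoded in Egfl7 and found in platelets too, ran from 13 in mouse 1 through 59 to 79 in mouse 8 (log2 0.52, SE 0.21, edgeR adjusted p = 0.0198). The call was lost in limma (adjusted p = 0.149), in replicates 1 to 4 (edgeR adjusted p = 0.514), without mice 6 and 8 (0.141) and without mouse 3, 5 or 8 (0.0556, 0.0687 and 0.0764). It was the only called member of the 6 listed for endothelium and vascular wall (16.7%, against 3.18% of all miRNA). The smooth muscle miRNA miR-143 and miR-145 ran from 11 through 16.5 to 26 and from 11 through 16.5 to 32. They were under the limit in every mouse. The partner strand miR-126-5p averaged 11.0 counts.

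No marker of a solid organ was called above background. None of the 4 liver, 7 striated muscle, 9 lung and airway epithelium, 4 pancreas and 8 neural miRNA was above background (0 of 32 by edgeR, also at an unadjusted p under 0.05, and 0 by limma and by DESeq2). As only 3.18% of all miRNA were called, 0 of 32 is near the share over the panel and is no result about organ markers. miR-122, the dominant miRNA of hepatocytes, ran from 7 through 14.5 to 35, and was over the limit in 1 of 8 mice. Its mean of 19.9 counts was below the limit (log2 -0.86, SE 0.22, edgeR adjusted p = 0.00126). The muscle miRNA miR-1 (mean 20.5) and miR-133a (14.8), the epithelial miR-200c (9.88), the islet miR-375 (21.4) and the neuronal miR-124 (13.5) were over the limit in no mouse. Between 0 and 1.72% of the background-subtracted counts fell to any of these 5 lists in any mouse.

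The highest counts in these organ lists were those of miR-148a, heart muscle miR-208a and epithelial miR-205. miR-148a, which liver makes but other tissues make too, averaged 38.8 and was over the limit in 5 of 8 mice (log2 0.11, SE 0.22, edgeR adjusted p = 0.634). miR-208a averaged 35.8 and was over it in 4 mice (edgeR adjusted p = 0.819), and miR-205 averaged 34.1 and was over it in 2 (edgeR adjusted p = 0.564). For an observed count of 14 the exact 95% Poisson interval of the underlying mean runs from 7.65 to 23.5, and for 30 from 20.2 to 42.8. A small amount of these miRNA could thus not be told from background in a single mouse. The counts do not show that they are absent from plasma.

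**Figure D3:**
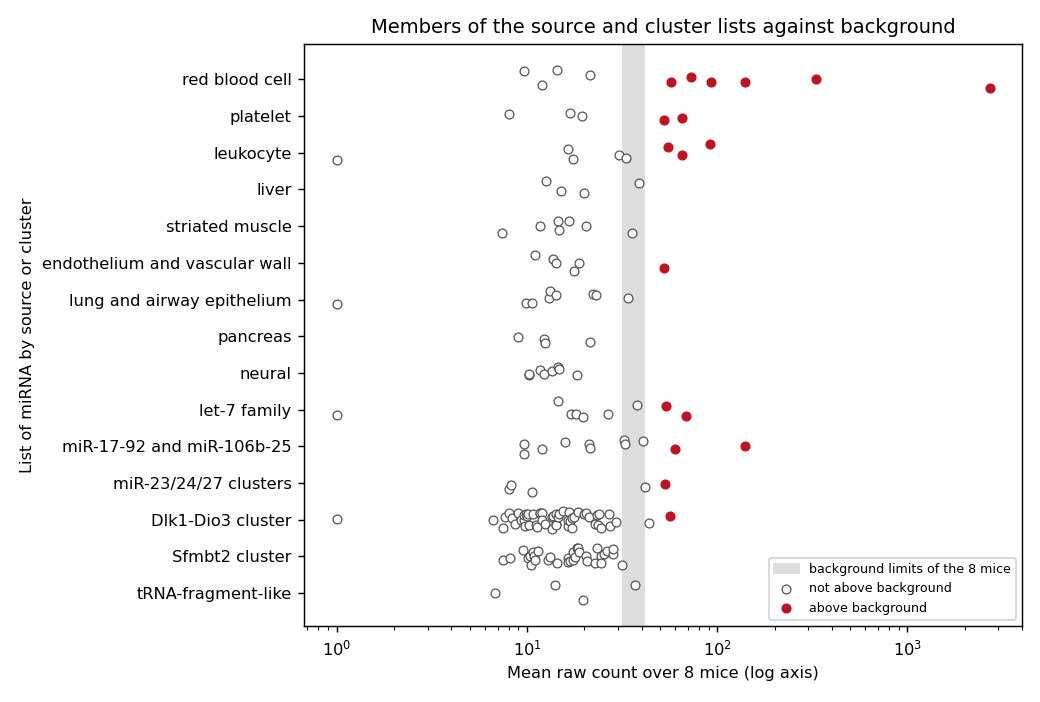
Mean raw counts over the 8 mice (log axis) of the members of 15 lists of miRNA by source, family or genomic cluster, 1 point for each probe with vertical jitter. Red points are above background, open points are not, and the grey band marks the background limits of 32.1 to 41.1. The red blood cell list holds 6 red points, and the liver, muscle, lung, pancreas and neural lists hold none.

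Of the 18, 15 belonged to a list and miR-22, miR-135a and miR-15b to none. miR-22, a widely expressed miRNA, ranked 3 and was the most counted outside the red blood cell list, from 94 through 170.5 to 214 (log2 2.18, SE 0.21, edgeR adjusted p = 6.44e-10). miR-135a ran from 47 through 61.5 to 76 (log2 0.74, SE 0.15, edgeR adjusted p = 5.43e-05). miR-323-3p, the only one of the 54 imprinted Dlk1-Dio3 miRNA above background (1.85%, near the 3.18% of all miRNA), ran from 38 through 57 to 70 (log2 0.64, SE 0.16, edgeR adjusted p = 0.000376). These 3 were over the limit in all 8 mice. miR-376a of the same imprinted cluster averaged 43.9 (edgeR adjusted p = 0.156).

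Of the 9 let-7 family miRNA, which restrain growth genes such as Lin28 and Ras, 2 were above background (22.2%, against 3.18% of all miRNA). let-7f ran from 49 through 63 to 106 and was over the limit in all 8 mice (log2 0.93, SE 0.18, edgeR adjusted p = 2.02e-05). let-7g ran from 24 through 38.5 to 143, with the highest count in mouse 6 (log2 0.57, SE 0.24, edgeR adjusted p = 0.0227). The let-7g call was lost in limma (adjusted p = 0.178) and in edgeR without mouse 5 (adjusted p = 0.0819) or mouse 6 (adjusted p = 0.363), and its value turned to log2 -0.12 in replicates 1 to 4. let-7i, at 92 counts in mouse 6 and 24 to 39 in the others, did not pass (edgeR adjusted p = 0.800). The remaining members averaged 14.5 to 26.5 counts apart from let-7a.

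Of the 11 probes for the miR-17-92 and miR-106b-25 clusters, which promote cell division, miR-25 and the joint probe for miR-20a and miR-20b were above background (18.2%, against 3.18%). The joint probe for miR-20a and miR-20b ran from 27 through 51 to 114 (log2 0.73, SE 0.22, edgeR adjusted p = 0.00218). Its call was lost without mice 6 and 8 (log2 0.25, edgeR adjusted p = 0.170) and in replicates 1 to 4 (log2 0.064, edgeR adjusted p = 0.758). The joint probe for miR-106a and miR-17 averaged 40.6 (edgeR adjusted p = 0.391). Of the miR-23, miR-24 and miR-27 clusters only miR-27a passed, from 34 through 52.5 to 71 (log2 0.56, SE 0.17, edgeR adjusted p = 0.00239). Its cluster partner miR-23a averaged 41.8 (edgeR adjusted p = 0.266) and miR-24 averaged 8.00. The miR-27a call was lost in replicates 1 to 4 (log2 0.36, edgeR adjusted p = 0.0836). None of the 33 probes of the Sfmbt2 intron cluster and none of the 4 tRNA-fragment-like probes was above background, near the share of 3.18% over the panel, with miR-669o (31.5) and miR-720 (37.0) leading.

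miR-202-5p lay just outside the call, and it is named here after its values were seen. It ran from 27 through 47.5 to 58 and was over the limit in 6 of 8 mice (log2 0.31, SE 0.16, edgeR adjusted p = 0.0632). let-7g, just inside, was over the limit in 4 of 8 mice. The neighbours in the lower part of the order, from miR-20a and miR-20b down to miR-126-3p, had means between 52.4 and 59.8 with SDs of 9.90 to 51.1, so their order is within the spread between mice.

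Each mouse exceeded its own limit for only part of the profile. 495 miRNA were over the limit in no mouse, 71 in at least 1 and 8 in all 8 mice. The 8 were miR-451, miR-16, miR-22, miR-25, miR-142-5p, let-7f, miR-135a and miR-323-3p. The 18 called miRNA held 23.7% to 48.4% of a mouse's miRNA counts (median 26.0%) and 64.2% to 86.5% of the background-subtracted counts (median 74.2%). The median miRNA had a mean of 13.9 counts, while the negative controls averaged 18.4 over the 8 mice. The 33 viral miRNA probes, whose targets these mice should lack, gave 0 calls in the same edgeR test and in limma, and none of their 264 values was over a limit.

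The spread between mice ranged widely among the called miRNA. It is given as the CV over the 8 mice of counts scaled by the positive controls. The median CV of the 18 was 50.6%, against 28.9% for the 544 other miRNA not fixed at 1. Counting error alone gives those 544 a median of 27.1%. The call itself sets part of this gap, since miR-144, miR-15a, miR-15b, miR-150 and let-7g passed only with the high counts of mouse 6. Without mouse 6 the median CV of the same 18 was 36.0%. miR-144 (110%), miR-16 (90.1%), miR-15a (80.9%), miR-15b (74.1%), miR-451 (71.1%), miR-486 (69.7%), let-7g (64.3%) and miR-25 (62.4%) spread most. For miR-451 the CV was 37.0 times its counting error and for miR-16 it was 16.4 times.

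At the other end stood miR-135a (12.5%), miR-142-5p (13.5%), let-7f (19.4%), miR-22 (20.6%), miR-27a (23.3%) and miR-323-3p (28.4%). miR-135a varied no more than counting error alone (0.98 times) and miR-142-5p 1.29 times. Low spread in this panel is shared by probes that read only background, so a steady count is not by itself a steady plasma level. Both miRNA were over the limit in all 8 mice. Mouse 4, with the lowest ligation controls (353), had 68 counts of miR-135a and 99 of miR-142-5p. Mouse 8, with the highest (3988), had 56 and 99. Whether these counts follow the plasma RNA was not tested.

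**Figure D4:**
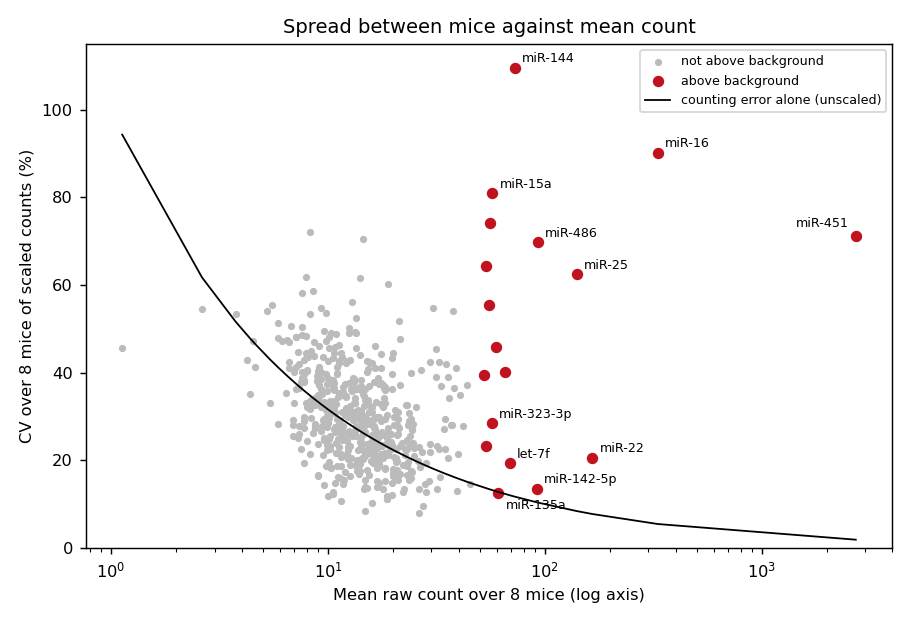
CV over the 8 mice of positive-control-scaled counts against the mean raw count (log axis), 1 point for each miRNA, leaving out the 4 listed at 1 in every mouse. Red points are the 18 above background and the line is the CV that counting error alone gives. miR-144 lies highest among the red points at 110%, and miR-135a lies on the line at 12.5%.

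Among the miRNA that spread most, some were high in both mouse 6 and mouse 8. Relative to the median mouse on the scaled counts, miR-451 was at 3.09 times the median in mouse 6 and 3.38 times in mouse 8. miR-16 was at 3.80 and 4.20 times, miR-25 at 2.63 and 2.91 times, and miR-486 at 3.04 and 2.56 times. The miR-20a and miR-20b probe was at 1.94 and 1.77 times. For these 5 both mice stood together.

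A further group was high in mouse 6 alone. miR-144 was at 5.50 times the median in mouse 6 and 1.34 times in mouse 8. The corresponding pairs were 3.98 and 0.98 for miR-15a, 3.18 and 0.99 for miR-15b, 3.37 and 0.98 for let-7g, and 2.57 and 1.16 for miR-150. Mice 6 and 8 also had the highest ligation controls (3657 and 3988), and the part of these in the result was not tested.

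**Figure D5:**
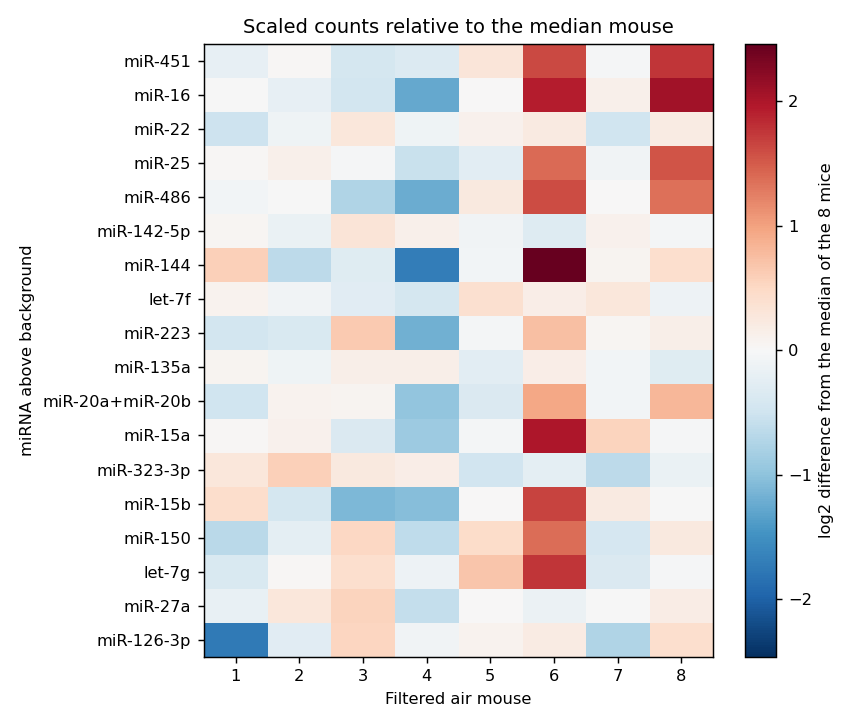
Positive-control-scaled counts of the 18 miRNA above background in each filtered air mouse, as log2 difference from the median of the 8 mice (colour). Red marks mice over the median and blue mice under it. miR-451, miR-16, miR-25 and miR-486 are red in mice 6 and 8, and miR-144, miR-15a, miR-15b and let-7g are darkest red in mouse 6.

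The other 17 called miRNA were set against miR-451 across the 8 mice on log2 scaled counts. miR-486 followed miR-451 most closely by rank (r = 0.94, exact permutation p = 0.000595, adjusted p = 0.0101 over 17 relations; rho = 0.93, exact permutation p = 0.00223, adjusted p = 0.0379). Without mice 6 and 8 its r was 0.82 (exact permutation p = 0.0444, adjusted p = 0.230 over 17). miR-16 gave r = 0.95 (exact permutation p = 0.00285, adjusted p = 0.0242) and rho = 0.86 (exact permutation p = 0.0107, adjusted p = 0.0911). Without mice 6 and 8 its r was 0.60 (exact permutation p = 0.212). Neither relation passed on the remaining 6 mice. For miR-25 r was 0.94 (exact permutation p = 0.0150, adjusted p = 0.0636) and it was 0.10 without mice 6 and 8, so its relation rests on those 2 mice.

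Within replicates 1 to 4 and within replicates 5 to 8, r with miR-451 was 0.76 and 0.98 for miR-486, 0.49 and 0.98 for miR-16, and 0.53 and 0.98 for miR-25, on 4 mice each and with no test. Of the 17, r had the same positive sign within both sets for 9, was negative within both for 1, miR-142-5p, and differed in sign for 7. miR-142-5p had r = -0.69 over the 8 mice (exact permutation p = 0.0641, adjusted p = 0.182) and rho = -0.81 (exact permutation p = 0.0218, adjusted p = 0.123). This r depended on the scaling. It was 0.073 without scaling, -0.19 with positive controls and housekeeping and -0.75 with TMM. miR-144, from the same transcript as miR-451, gave r = 0.70 (exact permutation p = 0.0486, adjusted p = 0.165) and rho = 0.52. With TMM scaling 0 of the 17 relations had an adjusted p under 0.05 and 5 an unadjusted p under 0.05.

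The count of miR-451 divided by that of miR-23a is widely used to gauge how much red blood cell RNA a plasma sample holds. On the log2 scale it was 5.77 ± 0.66 (SD, n = 8). It ran from 4.73 in mouse 3 to 6.70 in mouse 6, with 6.59 in mouse 8 and 5.94 or less in the others. miR-23a itself had 22 to 67 counts and was over the limit in 5 of 8 mice, so part of its count is background, and with the negative control mean subtracted the mean ratio was 6.83. No threshold from another assay was applied to the ratio.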

How the data were processed

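Plasma miRNA were profiled with the NanoString nCounter mouse panel version 1.5, in which about 10 ng of plasma RNA are tagged by ligation and read as color-coded probes without amplification. The deposited raw table holds counts per probe. The authors also deposited normalized values, a signal from which nSolver had taken the negative controls' geometric mean before scaling by positive controls and housekeeping genes. The authors' fold changes and p-values between exposure groups, in 2 further tables, were not used. Here raw counts of the 8 mice were tested with edgeR 4.0.16 (R 4.3.3), with an intercept alone, the log background limit as offset, no filter on low counts and Benjamini-Hochberg adjustment over 566 miRNA. The limit was treated as known. As glmQLFTest needs more than an intercept, its F test was computed from the same deviances and checked on simulated counts. Those counts had the same dispersion for every miRNA and none set at the limit itself. They therefore do not check calls that rest on a single mouse. limma 3.58.1 and DESeq2 1.42.0 served as alternatives. Correlations used log2 of counts scaled by positive controls plus 1, with two-sided exact permutation over 40320 pairings. Depth was 8665 to 18568 counts per mouse, and intervals cover counting error only. Named miRNA were those above background, the leading member of each list, defining source markers, and 5 others with the highest count in a mouse. Lists came from general knowledge. Members and lists were chosen with earlier results of these data known.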

Additional observations from a re-analysis of the deposited data

Results flagged for a closer look

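In 8 mice, the gap between the extreme mouse and its neighbour, as a share of the whole range, was above Dixon's 95% critical value for 8 of the 37 named miRNA. Chance flags about 1 in 20 groups, and 45 of 562 miRNA (8.01%) were past it. Mouse 6 was the extreme one for 7 of the 8, each time as the highest: miR-144 (0.772), miR-142-3p (0.767), miR-15a (0.734), let-7g (0.680), miR-15b (0.670), miR-150 (0.598) and let-7i (0.567). Of these, let-7i and miR-142-3p did not pass the test against background. They were named for a high count in a single mouse, miR-142-3p also as a source marker. The other 5 passed the test against background only with mouse 6. The choice of names thus favoured a high mouse 6, and these 7 flags are no separate result. The eighth was miR-124 in mouse 2 (0.535), where all counts were at background (10 to 18). Over all miRNA, mouse 6 was the extreme mouse for 11 of the 45, and mice 2 and 7 for 8 each. Mouse 6 also had the largest total, 18568 counts, and the part of this in these values was not tested.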

How the results depend on the processing

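The count of 18 miRNA above background became 88 with the negative control mean as the limit, where 2 of 33 viral probes (6.06%) also passed, and 31 with a rule of 4 of 8 mice over the limit. It was 8 in replicates 1 to 4 alone and 29 in replicates 5 to 8 alone, and 11 without mice 6 and 8, a choice made after seeing the data. Leaving out each mouse gave 13 to 19, the fewest without mouse 6, when miR-144, miR-15a, miR-15b, miR-150 and let-7g no longer passed. limma lost the same 5 and miR-126-3p, and DESeq2 lost miR-144. miR-126-3p no longer passed without any of mice 3, 5 or 8, and miR-150 and let-7g without mouse 5. The highest negative control, viral probes added to the limit, limma, DESeq2, a filter at a mean of 10 and a rule of 6 mice gave 12 to 26, with 19, 26, 12, 17, 18 and 15 calls. In replicates 1 to 4 alone, 5 log2 ratios to the limit turned negative: miR-144 (-0.22), miR-15a (-0.29), miR-15b (-0.31), miR-150 (-0.081) and let-7g (-0.12). miR-451, miR-16, miR-22, miR-25, miR-142-5p, let-7f, miR-135a and miR-323-3p passed under every edgeR, limma and DESeq2 alternative run.

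The share held by miR-451 (15.4%) was 50.9% after background subtraction, 42.0% in the deposited normalized values and 24.5% in replicates 5 to 8, and 14.5% to 16.2% leaving out each mouse. The median CV of 50.6% was 73.6% with ligation control scaling, 68.9% after background subtraction, 40.1% to 58.8% with the other scalings and 36.0% to 55.0% leaving out each mouse, the lowest without mouse 6. The 2 relations with miR-451 became 4 without scaling, 4 with positive controls and housekeeping and 0 with TMM. Without mice 6 and 8 there was 1, a negative one with miR-135a (r = -0.99 with positive control scaling). Its sign changed with the scaling. Without the same mice the r of miR-135a was 0.17 unscaled, 0.11 with positive controls and housekeeping and -0.69 with TMM. The relation of totals to positive controls (r = 0.83) was 0.76 without 2 mice and no longer passed. The red blood cell ratio (5.77) was 6.83 after background subtraction and 5.63 to 5.91 leaving out each mouse. The causes were not tested. No paired analysis was possible because only the filtered air mice were used and no group was compared with another.

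Most counts lie below the limit, which rests on 8 probes. At a count of 30 the exact 95% Poisson interval is 20.2 to 42.8, so a count of this size in a single mouse cannot be placed on either side of the limit.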
